A study of Mus musculus with 8 samples.

Results

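Kinesins are motor proteins that walk along microtubules, and 39 genes of the family were described in cultured muscle stem cells (MuSCs) of aged mice treated with nicotinamide and pyridoxine (NAM/PN). They were taken from the 55487 genes of the count table as the protein-coding genes whose mouse symbol begins with Kif and a digit. One of them, Kif1bp, encodes a protein that binds KIF1 motors and is not a motor itself, which left 38 motors. By their textbook roles, 12 were grouped as mitotic kinesins, 13 as transport kinesins and 13 as other kinesins, a mixed class that holds kinesins of cilia, of the cell cortex and of signalling and the depolymerase gene Kif2a.

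MuSCs were sorted by FACS from hindlimb muscles of mice labelled old, with a gate that removes cells bearing endothelial and blood cell surface markers and SCA1, and were cultured for 72 hours in growth medium. Cells of 8 mice were merged into 4 pools of 2 each by the labels, and each pool gave 1 library with vehicle (1% DMSO) and 1 with the NAM/PN combination (1 mM), so that libraries of the same pool came from the same mice. The study's aged mice were wild-type C57BL/6JRj males, the sample labels name no genotype or transgene, and young mice were not analysed here. The 3′ ends of transcripts were sequenced, and library totals over genes ran from 6472484 to 10163101 reads. Vehicle pool 3 and NAM/PN pool 4 stood apart from the other libraries of their condition, with a chi-square over its degrees of freedom of 64.4 to 82.2 and 67.4 to 78.6 against them, where the other pairs had 22.8 to 28.3.

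Mitotic kinesins build the spindle, move chromosomes and separate the daughter cells, and their genes are read mainly late in the cell cycle of dividing cells. Transport kinesins carry vesicles, mitochondria and proteins towards the plus end of microtubules, and the conventional heavy chain KIF5B is also used in muscle to place nuclei along the fibre. MuSCs divide as myoblasts before they leave the cell cycle, fuse and form fibres.

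No kinesin passed the test between NAM/PN and vehicle in either direction. Of the 39 genes, 26 passed the filter on low counts, and 0 of these 26 were called by edgeR's quasi-likelihood test at an adjusted p under 0.05, against 154 of all 12060 tested genes (1.28%). At an unadjusted p under 0.05 the count was again 0 of 26 kinesins, against 9.28% of all genes. With the pool as a replicate block 0 kinesins were called (1.29% of all genes), as with DESeq2 (2.4%) and with limma voom (1.92%). The 4 libraries of one condition overlapped with those of the other in all 26 kinesins, whereas 7.21% of all tested genes did not overlap. The smallest adjusted p among kinesins by edgeR's quasi-likelihood test was 0.656, for Kif26b. P-values here measure the spread between the 4 libraries of each condition. In RNA from whole cultures, fewer cells of a type and less RNA per cell cannot be told apart.

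**Figure D1:**
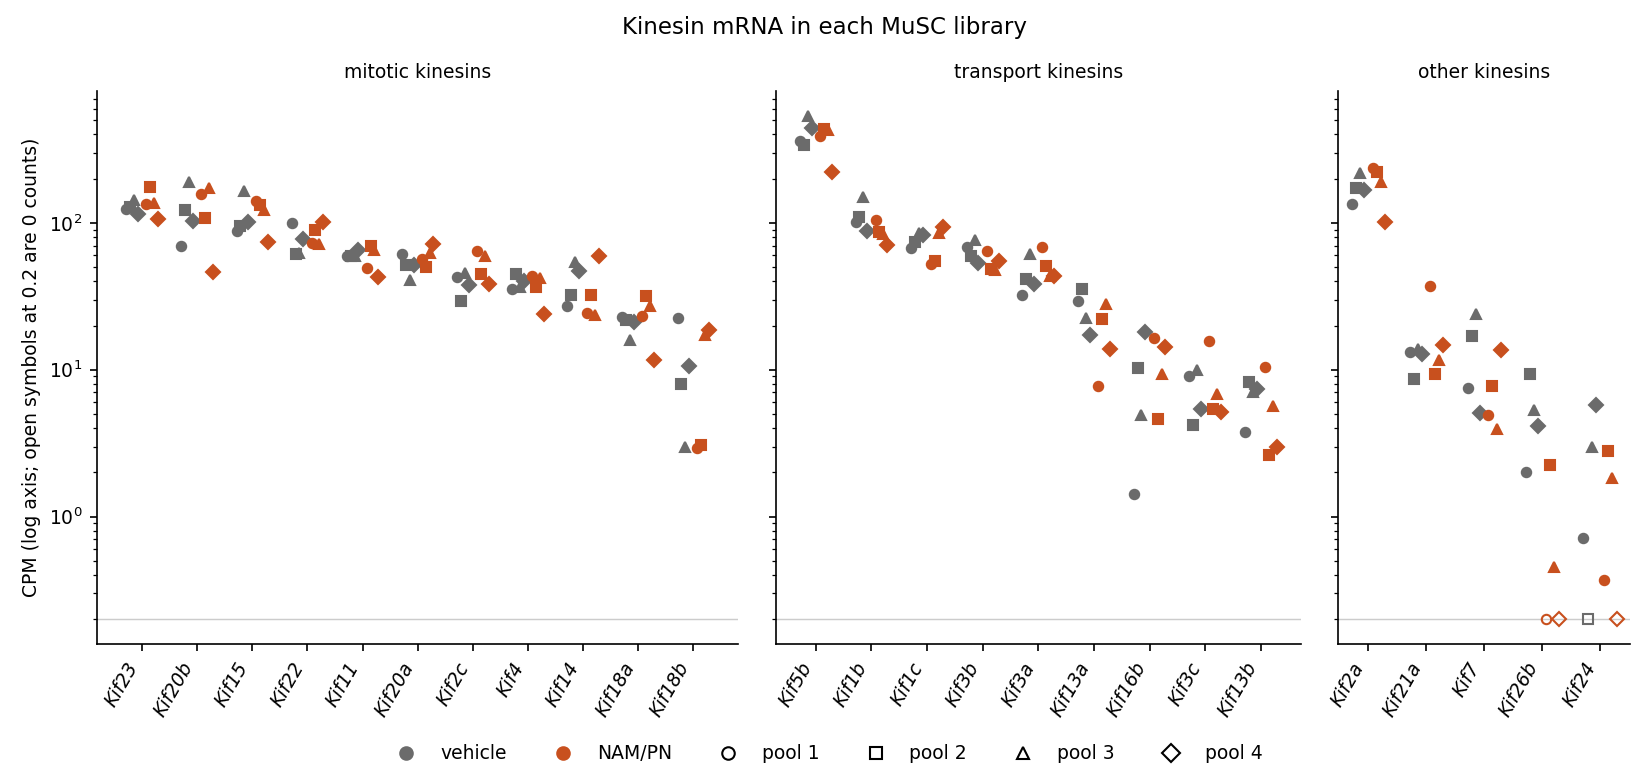
Normalized read counts (CPM, log axis) of the 25 tested kinesin motors in each of the 8 libraries, with vehicle in grey, NAM/PN in orange, a symbol shape for each pool and open symbols for 0 counts. Kif5b was the most abundant at a mean of 393 CPM over the 8 libraries, and the grey and orange points overlap for each gene.

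The estimates nevertheless bounded how far most of the tested kinesins could have moved. The 95% interval of the log2 fold change lay within a 2-fold change in both directions for 10 of 11 tested mitotic kinesins, 5 of 9 transport kinesins and 1 of 5 other kinesins, compared with 40.4% of all tested genes. Kif18b was the mitotic kinesin with the wider interval (-1.58 to 1.45). Estimates were higher with NAM/PN for 7 mitotic kinesins and lower for 4, with a median of 0.066 on the log2 scale and a range of -0.20 to 0.40. Of the 7, Kif20b was at only 0.00012 and was negative with the replicate block and with DESeq2. Among transport kinesins 3 estimates were higher and 6 lower (median -0.19, range -0.55 to 0.36). Among the other kinesins 2 were higher and 3 lower (median -0.81, range -2.94 to 0.59). The last median came from 5 genes and was -0.084 with limma voom, and it ran from -0.83 to 0.29 when a library or pool was left out (0.046 without vehicle replicate 4, 0.031 without pool 3 and 0.29 without pool 4). The median over all tested genes was -0.0022, with 49.8% of the estimates higher.

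**Figure D2:**
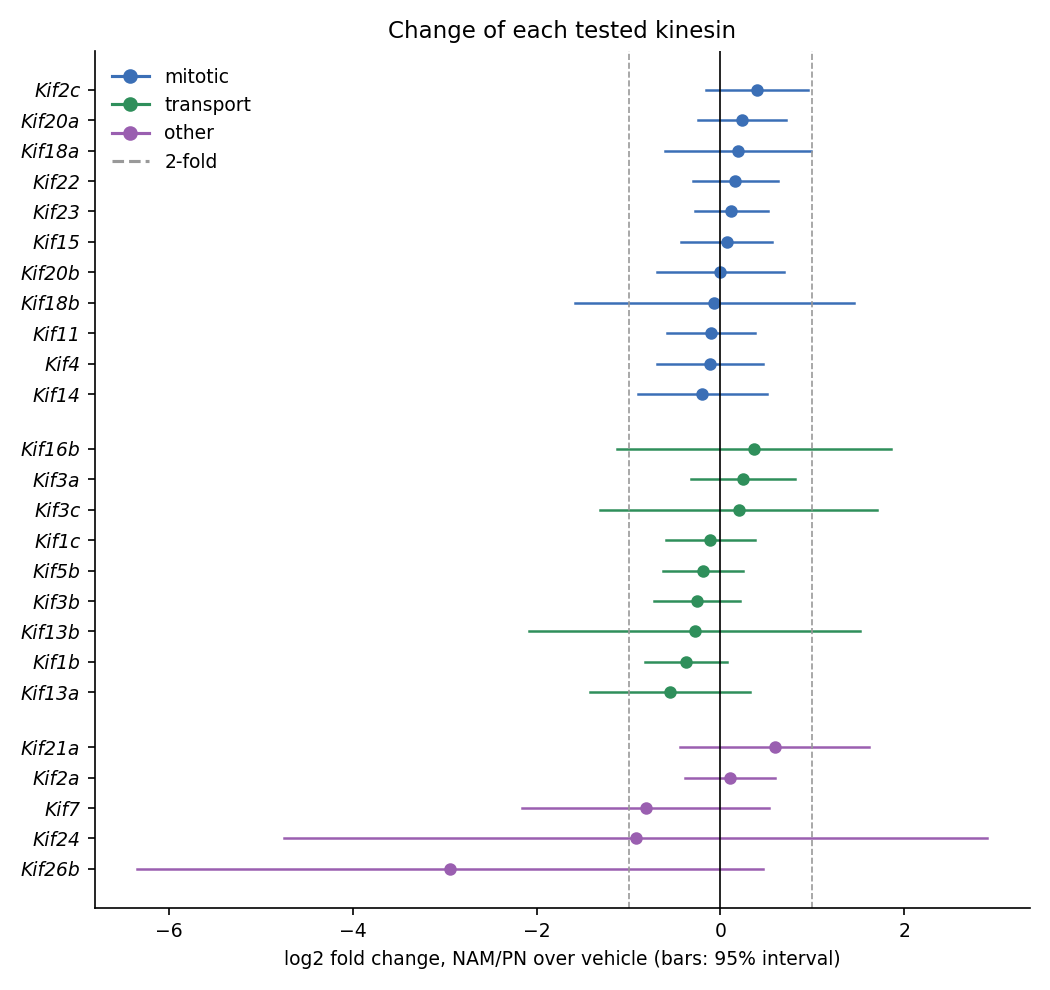
Log2 fold change of each tested kinesin with NAM/PN over vehicle (points) and its 95% interval (bars), by class, with dashed lines at a 2-fold change. All 25 intervals include 0, and 10 of the 11 mitotic kinesins lie between the dashed lines.

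Among the kinesins that shape the spindle, Kif2c had the smallest p-value. It encodes MCAK, which takes apart microtubules at centromeres, and lies at chr4:117159639-117182639 (GRCm38, minus strand). In CPM, the read counts scaled to a common normalized library size, Kif2c was at 43.0, 29.4, 45.8 and 37.9 CPM in vehicle pools 1 to 4 and at 64.3, 44.6, 59.1 and 38.2 CPM in the NAM/PN libraries of the same pools. It was higher with NAM/PN in all 4 pools, by very little in pool 4, and the conditions overlapped. The log2 fold change was 0.40 ± 0.26 (SE, n = 4 per condition), with an adjusted p of 0.763 by edgeR's quasi-likelihood test. Kif2c was the only mitotic kinesin whose 4 pools moved the same way, compared with 19.1% of all tested genes.

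Kif22 encodes the chromokinesin Kid, which pushes chromosome arms away from the poles. It was at 99.3, 61.0, 62.6 and 78.2 CPM with vehicle and at 72.5, 90.0, 72.0 and 102 CPM with NAM/PN. Pool 1 was lower with NAM/PN and the other 3 pools were higher, and the log2 fold change was 0.16 ± 0.22 (SE), with 0.038 without pool 2 and 0.38 without pool 1. Kif15, which keeps spindle poles apart together with TPX2, was at 88.2, 94.5, 165 and 101 CPM with vehicle and at 142, 133, 122 and 74.3 CPM with NAM/PN. Pools 1 and 2 were higher with NAM/PN and pools 3 and 4 lower, which left a log2 fold change of 0.07 ± 0.24 (SE).

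The kinesin-6 genes act at the end of mitosis, when the central spindle forms and the cell divides. Kif23, the motor of centralspindlin, had the highest mean of the mitotic class over the 8 libraries (133 ± 20.8 CPM, SD) and was at 125, 128, 142 and 116 CPM with vehicle and 135, 176, 137 and 107 CPM with NAM/PN. Its fitted SE was the smallest of the mitotic class (log2 fold change 0.12 ± 0.19, SE), although NAM/PN pool 2 lay above the vehicle range and NAM/PN pool 4 below it. Kif20a, which brings the chromosomal passenger complex to the midzone, was at 61.6, 51.5, 41.0 and 51.6 CPM with vehicle and 56.9, 50.4, 62.1 and 71.8 CPM with NAM/PN (0.23 ± 0.23). Kif20b, a kinesin of cytokinesis, had a mean of 121 ± 49.9 CPM (SD, n = 8) and ranged more widely than either, with 70.1, 122, 189 and 103 CPM with vehicle and 158, 109, 173 and 46.0 CPM with NAM/PN. It was above Kif23 in vehicle pool 3 and NAM/PN pools 1 and 3 and below it in the other libraries. Both its lowest and its next to highest value came from NAM/PN libraries, and its log2 fold change was 0.00012 ± 0.33 (SE).

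Kif11, Kif4, Kif14, Kif18a and Kif18b are described here after their values were seen. Kif11 encodes Eg5, the motor that pushes the spindle poles apart, and was at 59.8, 59.2, 59.7 and 65.8 CPM with vehicle and at 49.0, 70.1, 65.5 and 42.6 CPM with NAM/PN. The vehicle libraries were within a few CPM of each other, while NAM/PN pool 2 lay above them, NAM/PN pools 1 and 4 below them and NAM/PN pool 3 among them. Kif4, the chromokinesin that sets the length of the central spindle, ran from 35.5 to 44.9 CPM in vehicle libraries and from 24.0 to 43.3 CPM in NAM/PN libraries. Kif14, a midbody kinesin, was at 27.1, 32.1, 53.7 and 46.9 CPM with vehicle and at 24.4, 32.0, 23.8 and 59.1 CPM with NAM/PN. It had the lowest estimate of the class (-0.20 ± 0.34), although its highest value was in a NAM/PN library.

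The kinesin-8 pair dampens or shortens microtubule plus ends. Kif18a, which aligns chromosomes, was between 15.9 and 22.9 CPM with vehicle and at 23.1, 31.6, 27.3 and 11.6 CPM with NAM/PN, so that 3 NAM/PN libraries lay above all vehicle libraries and the last below them. Kif18b was at 22.4, 7.94, 2.96 and 10.7 CPM with vehicle and at 2.95, 3.07, 17.4 and 18.6 CPM with NAM/PN. In counts these were 189, 64, 24 and 98 reads against 24, 22, 114 and 199 reads, a spread far beyond counting error within each condition. The last member of the class, Kif2b, known mainly from testis, had 0 counts in all libraries.

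A short sequence known from cell cycle genes was in most promoters of mitotic kinesins. Promoter windows from RefSeq (GRCm38.p6), with 250 bases before and 50 after the annotated start, were found for 31 of the 39 genes. The cell cycle homology region (CHR), to which repressor complexes of the cell cycle bind, was searched as TTTGAA on either strand, and 9 of 11 mitotic promoters held it. It was in 1 of 10 transport promoters and 2 of 10 of the others, against 20.2% of all 27025 symbols and 13.7% of the 8858 tested genes in the table. Within 30 bases of the start it was found in 7 mitotic promoters (63.6%), 0 transport promoters, 1 promoter of the others (Kif26b, 9 bases before the start) and 3.39% of all symbols. CCAAT on either strand, the box bound by NF-Y, was in 7 of 11 mitotic promoters and in 41.1% of all symbols. These matches are letters in a window and not measured binding. The stretches around the matches of the 7 mitotic genes, which that limit itself chose, are printed below to show the letters in their setting. Each reads 5′ to 3′ on the strand of the gene, and capitals mark the CHR letters or their reverse (TTCAAA) and, where it lies within the stretch, CCAAT or its reverse (ATTGG).
Kif11 (chr19:37376309-37376368, plus strand): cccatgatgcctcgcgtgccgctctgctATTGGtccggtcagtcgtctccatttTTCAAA
Kif22 (chr7:127042432-127042491, minus strand): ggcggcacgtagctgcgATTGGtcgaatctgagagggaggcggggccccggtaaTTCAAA
Kif15 (chr9:122951008-122951067, plus strand): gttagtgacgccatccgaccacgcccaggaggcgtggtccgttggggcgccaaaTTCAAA
Kif23 (chr9:61946780-61946809, minus strand): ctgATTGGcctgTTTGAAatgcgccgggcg
Kif18b (chr11:102925104-102925133, minus strand): cggaccggctagTTTGAAcgcgccgcgccg
Kif20b (chr19:34922353-34922382, plus strand): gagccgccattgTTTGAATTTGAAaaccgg
Kif4 (chrX:100626072-100626101, plus strand): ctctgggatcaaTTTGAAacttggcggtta

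The place of the letters differed between the genes. Kif11, Kif15 and Kif22 held the reverse letters upstream, beginning 19, 19 and 17 bases before the start, and Kif15 and Kif22 held a further match more than 200 bases before it. In Kif23, Kif18b, Kif20b and Kif4 the forward letters began 2, 3, 7 and 19 bases after it, and in Kif20b they were present again 6 bases further on. Between the nearest CCAAT letters upstream and the CHR letters lay 4 bases in Kif23, 19 in Kif4, 21 in Kif11, 28 in Kif18b and 32 in Kif22, and the windows of Kif15 and Kif20b held no CCAAT. The log2 fold changes of these 7 genes had both signs, from -0.11 for Kif4 and Kif11 to 0.16 for Kif22. Kif18a, with no match in its window, had an estimate of 0.19 ± 0.38 (SE).

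Among transport kinesins, Kif5b is the conventional heavy chain found in most cells. It lies at chr18:6201002-6242174 (minus strand) and carried the most counts of any kinesin. It was at 359, 336, 537 and 443 CPM with vehicle and at 388, 433, 429 and 221 CPM with NAM/PN. The NAM/PN libraries of pools 1 to 3 lay within the vehicle range and that of pool 4 below it, and the log2 fold change was -0.19 ± 0.21 (SE). Its mean over the 8 libraries, 393 ± 92.7 CPM (SD, n = 8), was 2.18 times that of Kif2a, the next in order. From Kif23 at rank 3 down to Kif14 at rank 15 each gene differed from the next by less than its own SD. Reads came from the 3′ end, so CPM were compared between genes without division by length.

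The kinesin-3 genes carry vesicle precursors, endosomes and mitochondria. Kif1b had the smallest p-value of the transport class and lies at chr4:149176319-149307693 (minus strand). It was at 102, 109, 150 and 87.7 CPM with vehicle and at 104, 87.2, 83.4 and 70.4 CPM with NAM/PN. Pools 2 to 4 were lower with NAM/PN and pool 1 was about level. The log2 fold change was -0.38 ± 0.21 (SE), with a 95% interval of -0.82 to 0.07 and an adjusted p of 0.667 by edgeR's quasi-likelihood test, and the estimate was -0.21 without vehicle replicate 3. Kif13a, a motor of endosomes, had the lowest estimate of the class (-0.55 ± 0.42) and was at 29.6, 35.2, 22.4 and 17.3 CPM with vehicle and 7.76, 22.0, 27.9 and 13.9 CPM with NAM/PN. The largest gap was in pool 1, with 250 reads against 63, and the estimate was -0.24 without pool 1 and -0.91 without pool 3. Kif1c, a vesicle and integrin carrier, was at 67.4, 74.4, 85.5 and 82.9 CPM with vehicle. With NAM/PN it split into a lower pair, 52.6 and 54.6 CPM in pools 1 and 2, and a higher pair, 85.7 and 94.4 CPM in pools 3 and 4.

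Kif3a and Kif3b encode the motor subunits of heterotrimeric kinesin-2, which builds cilia, and their estimates had opposite signs. Kif3a was at 32.2, 41.7, 61.5 and 38.1 CPM with vehicle and at 68.6, 50.6, 43.4 and 43.4 CPM with NAM/PN (0.25 ± 0.27). Kif3b was at 68.7, 59.7, 76.7 and 53.6 CPM with vehicle and at 64.6, 48.6, 48.1 and 55.0 CPM with NAM/PN (-0.26 ± 0.22). The intervals of both included 0 and the difference between the genes was not tested. Without pool 1 both estimates were negative, at -0.042 for Kif3a and -0.33 for Kif3b. Kif3c, Kif13b and Kif16b were tested at lower levels, with means over the 8 libraries of 7.73, 6.02 and 9.90 CPM. Their estimates were 0.20, -0.28 and 0.36, each with an SE of at least 0.71.

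In the mixed class, Kif2a had the second highest mean of all kinesins over the 8 libraries. It encodes a microtubule depolymerase of spindle poles and neurons and was at 135, 173, 220 and 169 CPM with vehicle and 236, 222, 189 and 102 CPM with NAM/PN. NAM/PN pools 1 and 2 lay above the vehicle range, pool 3 within it and pool 4 below it, with a log2 fold change of 0.10 ± 0.23 (SE). Kif21a, which restrains microtubule growth at the cell cortex, was at 13.1, 8.69, 13.8 and 12.7 CPM with vehicle and at 37.2, 9.34, 11.6 and 14.9 CPM with NAM/PN. Its estimate of 0.59 ± 0.49 came from NAM/PN pool 1, and without that library it was -0.020. Kif7, a regulator of Hedgehog signalling at the tip of the cilium, was at 7.46, 17.0, 24.0 and 5.11 CPM with vehicle and at 4.92, 7.80, 3.96 and 13.6 CPM with NAM/PN (-0.81 ± 0.64). The estimate of Kif7 was -1.53 without pool 4 and -0.17 without pool 3. Kif24, which acts at centrioles, was at 0.710, 0, 2.96 and 5.77 CPM with vehicle (6, 0, 24 and 53 reads) and at 0.369, 2.79, 1.83 and 0 CPM with NAM/PN (3, 20, 12 and 0 reads). Both conditions held a library with 0 counts, and its estimate was -0.92 ± 1.83.

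Kif26b had the smallest p-value of all kinesins. It belongs to the kinesin-11 group, whose members do not walk and act in signalling, and lies at chr1:178529125-178939200 (plus strand). Its counts were 17, 75, 43 and 38 reads with vehicle and 0, 16, 3 and 0 reads with NAM/PN, or 2.01, 9.31, 5.31 and 4.14 CPM against 0, 2.23, 0.457 and 0 CPM. Each pool was lower with NAM/PN than with vehicle, but NAM/PN pool 2 lay above vehicle pool 1. The 0 counts in NAM/PN pools 1 and 4 allow up to 0.369 and 0.280 CPM (3 counts, counting error only). The log2 fold change was -2.94 ± 1.63 (SE), with a 95% interval of -6.35 to 0.47, and its adjusted p was 0.656 by edgeR's quasi-likelihood test and 0.541 with the replicate block. The estimate itself was -4.45 with the block and -5.06 without NAM/PN replicate 2.

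The 13 untested kinesins were Kif1a, Kif2b, Kif5a, Kif5c, Kif6, Kif9, Kif12, Kif17, Kif19a, Kif21b, Kif26a, Kif27 and Kif28. Kif2b, Kif17 and Kif28 had 0 counts in every library. The neuronal heavy chains Kif5a and Kif5c stayed at or under 5.05 CPM in each library, as did the axonal motor Kif1a. Among untested kinesins, 3 were singled out after their values were seen. Kif26a, the paralog of Kif26b, had 9, 0, 0 and 0 reads with vehicle and 7, 23, 17 and 54 reads with NAM/PN, so that it was higher in 3 of 4 pools where Kif26b was lower in each. Kif5c had 0, 1, 9 and 2 reads with vehicle and 41, 16, 25 and 0 reads with NAM/PN. Kif27, a kinesin of cilia, had 91 reads in NAM/PN pool 2 and 1 read in the other 7 libraries together. These 3 were left out by the filter, and in the fit without the filter 0 of 36 kinesins were called. Kif1bp, the gene of the family name without a motor, was tested and had a log2 fold change of -0.52 ± 0.51 (SE).

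Mitotic and transport kinesins were next set against each other within each library, as shares of the summed CPM of the 38 motors. Transport kinesins took 45.2%, 44.1%, 46.9% and 46.5% of the kinesin CPM with vehicle and 41.0%, 40.8%, 42.4% and 41.6% with NAM/PN. The share was lower with NAM/PN in all 4 pools and the conditions did not overlap (45.7% ± 1.28 against 41.5% ± 0.709, SD, n = 4). Mitotic kinesins took 44.0%, 42.3%, 40.0% and 41.4% with vehicle and 43.1%, 44.3%, 45.6% and 47.6% with NAM/PN. That share was higher with NAM/PN in pools 2 to 4 and lower in pool 1, and the conditions overlapped. The shares have no test here, since they sum over genes chosen together and Kif5b alone made up between 17.7% and 27.3% of the kinesin CPM. When Kif5b was left out, an alternative chosen after the data were seen, the transport share ran from 26.4% to 28.5% in vehicle libraries and from 21.3% to 29.1% in NAM/PN libraries. The conditions then overlapped through NAM/PN pool 4 alone. The summed CPM of the mitotic class was 699 ± 78.3 with vehicle and 736 ± 94.7 with NAM/PN, and that of the transport class 766 ± 132 and 678 ± 106 (SD, n = 4), which overlapped in both.

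**Figure D3:**
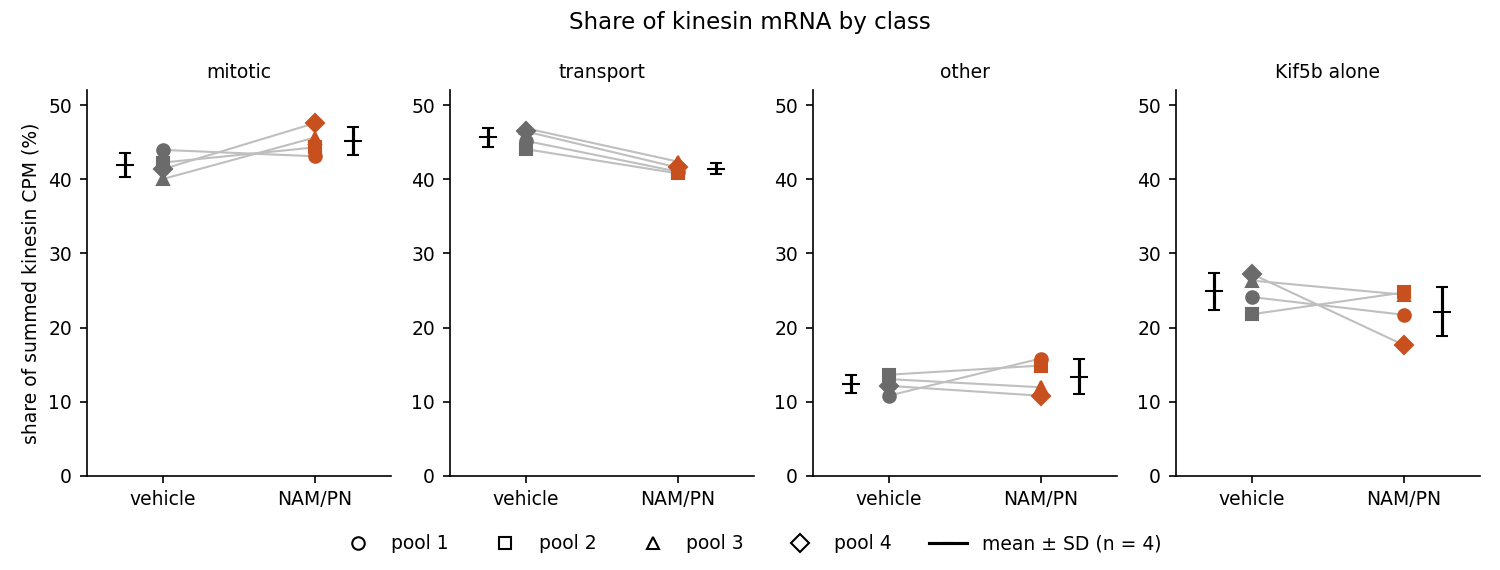
Share of the summed kinesin CPM (%) taken by mitotic, transport and other kinesins and by Kif5b alone, with a symbol for each pool, a line joining the libraries of a pool and the mean ± SD of 4 libraries beside them. The transport share is 44.1% to 46.9% with vehicle and 40.8% to 42.4% with NAM/PN, and the other shares overlap.

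The libraries with the lowest and the highest summed kinesin CPM were NAM/PN pool 4 (1250) and vehicle pool 3 (2037), against 1489 to 1787 in the other 6. Vehicle pool 3 was the highest of the 8 libraries for 6 of the 25 tested motors, as was NAM/PN pool 1. Without vehicle pool 3, 0 kinesins were called, and the medians were 0.083 for mitotic, -0.059 for transport and -0.075 for other kinesins. NAM/PN pool 4 was alone the lowest for 9 of the 25 tested motors, joint lowest at 0 counts for 2 (Kif24 and Kif26b) and the highest for 4. Low values in NAM/PN pool 4 included those of the kinesins with the fewest G and C bases in their transcripts: of the 6 kinesins under 45% GC and at an average log2 CPM of 4 or more (Kif18a, Kif2a, Kif20b, Kif5b, Kif11 and Kif15), it was the lowest library for all 6. Of the 11 kinesins at that level with more GC it was the lowest for 3 (Kif23, Kif4 and Kif1b) and the highest for 4. Among all genes at that level it was the lowest library for 27.4% of 2038 genes under 45% GC and for 15.4% of 5368 genes with more. Deviations were taken from the mean of the other libraries of the same condition. Those of NAM/PN pools 1 to 3 thus depend in part on pool 4. Among these 17 kinesins, Kif20b was the farthest below that mean in NAM/PN pool 4 (-1.64 on the log2 scale) and Kif14 the farthest above it (1.15). Across them, Spearman's rho between GC content and the deviation of that library was 0.74, compared with -0.55 to 0.46 in the other 7 libraries. Over all 25 tested motors it was 0.40 in that library and -0.40 in NAM/PN pool 1. Across the 12054 tested genes with a GC value it was 0.20, the largest of the 8 libraries. The kinesins share 1 library and are not replicates, the limits on GC and level were chosen after the values were seen, and the part of GC content in the results was not tested. That library had the most counts (10163101) and the fewest genes detected (12483, against up to 14472).

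Without pool 4 in both conditions 0 kinesins were called again, and the estimate of Kif5b became 0.020 in place of -0.19. The median of the mitotic class was then 0.14 and that of the transport class 6.1e-05, and without pool 2 that of the transport class was -0.018. The transport median was also nearer 0 without NAM/PN replicate 4 (-0.044), NAM/PN replicate 2 (-0.055) or vehicle replicate 3 (-0.059). The lower transport share moved little, with a difference of -3.98 percentage points without pool 4 against -4.20 with it.

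Genes that work with kinesins were not called either, where 1.28% of all tested genes were. Of the 6 motors outside the symbol pattern 0 were called, and Cenpe, the kinetochore motor, was at 157, 197, 292 and 198 CPM with vehicle and 227, 225, 322 and 202 CPM with NAM/PN (0.21 ± 0.21, SE). Of 19 tested kinesin light chains and cargo adaptors 0 were called, with a median of -0.25. The smallest p-values were those of Hook3, a dynein and kinesin adaptor (-0.58 ± 0.23), and Rhot1, which links mitochondria to motors (0.38 ± 0.21). Of 21 genes of dynein, the motor of the opposite direction, dynactin and their regulators 0 were called (median -0.023), with the regulator Ndel1 (-0.46 ± 0.29) and the dynactin subunit Dctn4 (-0.35 ± 0.23) first by p-value. Of 20 spindle partners of mitotic kinesins 0 were called (median -0.0088), although their summed CPM, at 2721 to 2834 with vehicle and 2906 to 3107 with NAM/PN, was higher with NAM/PN in all 4 pools and did not overlap. First by p-value were Birc5, a subunit of the chromosomal passenger complex, at 0.43 ± 0.16, and Ect2, a trigger of furrow ingression, at -0.38 ± 0.23. The sums have no test here, and those of the other motors, the adaptors, dynein and dynactin, and the proliferation genes overlapped. Of 22 proliferation genes 0 were called (median 0.11), with Bub1, a spindle checkpoint kinase, at 0.66 ± 0.28 and Cdkn3 at -1.27 ± 0.70. At an unadjusted p under 0.05 by edgeR's quasi-likelihood test, 1 gene passed in each of the lists of adaptors, spindle partners and proliferation genes (Hook3, Birc5 and Bub1), or 1 of 19, 1 of 20 and 1 of 22 genes, and 0 in the other lists named here, against 9.28% of all tested genes.

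The same fit called genes of another list, which was chosen with earlier results of these data known. With NAM/PN 13 of 17 myogenic differentiation genes were called lower, compared with 0.995% of all tested genes called lower, and their median log2 fold change was -2.22. Myog, the transcription factor of early differentiation, was at 680, 1043, 566 and 1430 CPM with vehicle and at 108, 237, 173 and 277 CPM with NAM/PN. Its libraries did not overlap, and its log2 fold change was -2.22 ± 0.29 (SE) with an adjusted p of 0.00023 by edgeR's quasi-likelihood test. Mitotic kinesins, with a median of 0.066, were measured in these same libraries.

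**Figure D4:**
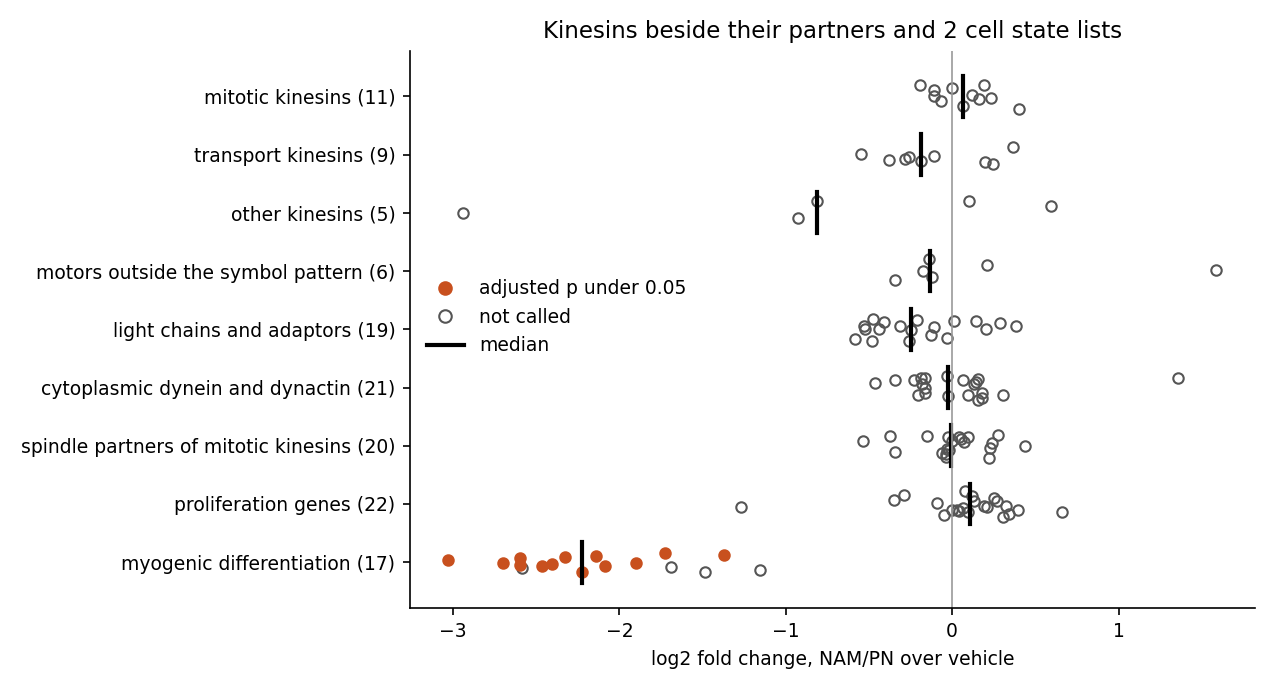
Log2 fold change with NAM/PN over vehicle of each tested gene in the 3 kinesin classes and 6 further lists (number of tested genes in brackets), with medians as black bars and called genes filled. The medians of the kinesin classes are 0.066, -0.19 and -0.81 with 0 genes called (the last -0.83 to 0.29 when a library or pool is left out), and that of myogenic differentiation is -2.22 with 13 of 17 genes called.

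Markers of the labelled cell type were present in each library, with a summed level of 10 myogenic markers of 3484 to 4798 CPM with vehicle and 2443 to 3206 CPM with NAM/PN, which did not overlap. Of the 9 that were tested, 1 (Myog) was called lower. Summed markers of endothelial cells were at most 29.6 CPM, of blood cells at most 17.1 CPM and of glia at most 18.4 CPM, with Emcn, Cldn5, Flt1, Ptprc, Itgam, Lyz2, Csf1r, Cd52 and Tyrobp at 0 counts in all libraries. The 8 neuronal markers summed to between 14.0 and 53.1 CPM. The 8 fibro-adipogenic markers summed to 554 and 1123 CPM in NAM/PN pools 1 and 2, mostly Col1a1, and to between 57.0 and 207 CPM in the other libraries, with Pdgfra, Dpt and Lum at 0 counts. Of the 2 that were tested, the collagen gene Col3a1 was called lower with NAM/PN (-1.17 ± 0.19), and Col1a1 had an estimate of 4.97 ± 1.30 with an adjusted p of 0.0709 by edgeR's quasi-likelihood test. The 8 mural markers summed to 290.3 to 618 CPM in vehicle libraries and 107 to 156 CPM in NAM/PN libraries. Of the 4 that were tested 1 was called lower, the smooth muscle actin gene Acta2 (-2.38 ± 0.29). The part of these cells in the kinesin values was not tested.

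The counting of some kinesins was less certain. The last 1000 bases of Kif20a, Kif7, Kif2a and Kif3c overlapped on the opposite strand with Cdc23, Ticrr, Dimt1 and 1110002L01Rik, and the strand setting of the counting is not given in the sources used here. Kif20a and Cdc23 had 3742 and 3817 reads over the 8 libraries, Kif7 and Ticrr 709 and 1027 reads, and Kif2a and Dimt1 11704 and 316 reads. The pseudogenes Kif22-ps and Kif4-ps had 0 counts.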

How the data were processed

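RNA of cultured MuSCs was sequenced in 8 libraries (4 with vehicle, 4 with NAM/PN) made with a QuantSeq 3′ kit. The authors deposited a table of raw read counts, 1 column for each library, that was neither normalized nor filtered. They aligned reads to GRCm38 with RNASTAR and counted them with htseq-count. The annotation release, strand setting and handling of multi-mapping reads are not given in the sources used here.

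Members, classes and gene lists were chosen with earlier results of these data known. GENCODE M21 (GRCm38) gave symbols and positions for 55141 identifiers. Genes were filtered with filterByExpr (minimum count 10, minimum total 15), scaled with TMM factors and compared in all 8 libraries by the quasi-likelihood test of edgeR 4.0.16, with Benjamini-Hochberg adjustment over 12060 genes (threshold 0.05, two-sided). Values are CPM of the normalized library. Log2 CPM used a prior count of 2. SEs were calculated from the log2 fold change and the test statistic of the fit. The 95% intervals were built from these SEs, symmetric around the estimate, and are approximate. With totals of 6472484 to 10163101 counts, the floor of 3 counts was 0.280 to 0.457 CPM of the normalized library, and such floors cover counting error only.

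Members described in every library are those called, the 4 with the smallest p-values and the 3 with the most counts in each class, and those whose conditions do not overlap. In each further list, called genes and the 2 with the smallest p-values were eligible. Other named members were chosen after their values were seen. Of the called differentiation genes only Myog is given in full.

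Libraries of one pool come from the same mice. Deviations from the condition means correlated between them by -0.033 to 0.031 across genes. Libraries of one condition differed by more than sampling noise (chi-square over its degrees of freedom at least 22.8).

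Tested on simulated data for this comparison (12060 genes), the fit recovered 39 of 100 genes changed 2-fold and 85 of 100 changed 4-fold, with 8 false calls. The changed genes were drawn above a minimum level that Kif3c, Kif13b, Kif24 and Kif26b did not reach, so the rates do not cover these kinesins. No outlying library was simulated.

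Alternatives were the replicate block, DESeq2 1.42.0, voomWithQualityWeights with duplicateCorrelation in limma 3.58.1, no filter, library totals without TMM, thinning to the smallest library, a threshold of 0.10, a prior count of 0.5, other class membership, and leaving out single libraries or pools. R 4.3.3, Python 3.11.15 and matplotlib 3.10.9 were used.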

Additional observations from a re-analysis of the deposited data

Results flagged for a closer look

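In 58 groups of 4 values (each tested kinesin and each class share in each condition), 3 had 1 library far from the other 3 by Dixon's ratio, where chance flags about 1 in 20 groups, or 2.9 here. Kif15 was at 165 CPM in vehicle pool 3, against 88.2 to 101 CPM in the other vehicle libraries. Kif3c was at 15.6 CPM in NAM/PN pool 1, against 5.14 to 6.85 CPM in the other NAM/PN libraries. Kif11 was at 65.8 CPM in vehicle pool 4, against 59.2 to 59.8 CPM in the other vehicle libraries, which lay unusually close together. Without vehicle replicate 3 the log2 fold change of Kif15 was 0.31 in place of 0.07.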

How the results depend on the processing

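The count of called kinesins was 0 under all 19 alternatives, with a lowest adjusted p of 0.356, and at most 1 kinesin had an unadjusted p under 0.05 in any of the 18 that refit the model. The count over all tested genes was 289 with DESeq2, 366 without the filter, 232 with voom, 244 at a threshold of 0.10, and 42 to 177 when a library or pool was left out, lowest without pool 2. The replicate block gave 156 genes, 0 kinesins and a mitotic median of 0.071, and this paired fit changed no call of a kinesin. Leaving out a library or pool put the median log2 fold change at 0.0037 to 0.14 for mitotic, -0.30 to 6.1e-05 for transport and -0.83 to 0.29 for other kinesins, and the last was -0.37 without the filter and -0.084 with voom. The share difference was 2.26 to 4.62 percentage points for mitotic and -4.73 to -3.79 for transport kinesins, and -2.93 for transport without Kif5b. The cause of these changes was not tested.

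Of the 17 kinesins chosen by p-value and counts, 8 kept their sign in each fit. Kif20b (0.00012) was -0.078 with the replicate block, -0.0052 with DESeq2, -0.011 without the filter and -0.0013 after thinning. When a library or pool was left out, the log2 fold change ran from -0.34 to 0.29 for Kif20b, -0.14 to 0.31 for Kif15, -0.27 to 0.014 for Kif1c, -0.020 to 0.83 for Kif21a, -0.017 to 0.22 for Kif23, -2.10 to 0.43 for Kif24, -0.13 to 0.31 for Kif2a, -0.042 to 0.54 for Kif3a and -0.37 to 0.020 for Kif5b. It kept its sign for Kif26b (-5.06 to -2.50), Kif7 (-1.53 to -0.17), Kif13a (-0.91 to -0.24), Kif1b (-0.53 to -0.19), Kif3b (-0.35 to -0.11), Kif20a (0.12 to 0.35), Kif22 (0.038 to 0.38) and Kif2c (0.28 to 0.52). Kif24 and Kif26b had the fewest counts of the tested kinesins and the widest intervals. Without the filter 36 kinesins were tested, with a lowest adjusted p of 0.366.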
